A study of Mus musculus with 9 samples.

Results

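Glycolysis and the uptake of its sugar were followed here through 10 genes in naive and primed mouse pluripotent stem cells. The genes were the glucose carrier Slc2a1, the hexokinases Hk1 and Hk2, the phosphofructokinases Pfkl, Pfkm and Pfkp, the aldolase Aldoc, the phosphoglycerate kinase Pgk1, the lactate dehydrogenase Ldha and the pyruvate dehydrogenase kinase Pdk1. They were taken by symbol, and every probe set annotated to one of them alone was kept, which gave 13 probe sets of the 21789 that carried a single symbol. These 10 genes are among 19938 measured.

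Glucose enters the cell through carriers of the SLC2A (GLUT) family, is trapped by hexokinase, committed to glycolysis by phosphofructokinase and split by aldolase. Phosphoglycerate kinase makes ATP further down, and pyruvate then either becomes lactate through lactate dehydrogenase or enters the mitochondrion, where pyruvate dehydrogenase kinases hold back its oxidation. Most steps have several isozymes encoded by separate genes with different kinetics and tissue use. Naive embryonic stem cells are known to use both respiration and glycolysis, whereas primed cells rely mostly on glycolysis.

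RNA was measured on 9 single-colour Affymetrix arrays, 3 for each of 3 cultures. Embryonic stem cells (ESCs) of strain 129, counterparts of the naive epiblast, were grown in 2i, that is CHIR99021 at 3 µM, an inhibitor of the kinase GSK3, with PD0325901 at 1 µM, an inhibitor of MEK and so of ERK signalling. Epiblast stem cells (EpiSCs) of strain CD1, counterparts of the later primed epiblast, were grown either in CHIR99021 at 3 µM with the tankyrase inhibitor XAV939 at 2 µM, or in the growth factors FGF2 and activin, each at 10 ng/ml. All media contained serum, and the doses are listed for all samples together, so each was assigned through the name of the medium. Strain and PD0325901 go with cell type, so their parts in any difference from ESCs cannot be told apart from cell state. Whether the 3 arrays of a culture hold independent cultures is not in the labels, and every p-value here reflects array-to-array spread that may be technical only.

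The labelled states matched their marker genes. All 7 naive markers fell in both EpiSC groups, from a median level of 9.54 in ESCs to 5.13 in CHIR/XAV and 5.34 in FGF2/activin EpiSCs, and 5 of 6 primed markers rose in both while Sfrp2 fell. Array medians lay between 5.57 and 5.65. The 8 fibroblast or feeder markers had gene means of 4.33 to 5.94 in ESCs, 4.30 to 7.21 in CHIR/XAV EpiSCs, where Thy1 was highest, and 4.32 to 6.06 in FGF2/activin EpiSCs. Of them 1 rose (Thy1, 3.40-fold) and 1 fell in CHIR/XAV EpiSCs, and 3 rose and 1 fell in FGF2/activin EpiSCs. Of 6 endoderm markers, with means of 4.61 to 5.79 in all groups, 1 fell in CHIR/XAV EpiSCs, and 1 (Gata6, by 0.50) rose and 3 fell in FGF2/activin EpiSCs. Of 5 neural markers, with means of 4.81 to 6.76, 1 rose and 2 fell in each, Pax6 (-1.75 and -1.95) and Tubb3 (-0.65 and -0.73). Their part in the results was not tested. Levels are log2 expression values, on which 1 unit is 2-fold, and without detection calls dim levels may be background. Because a probe set's brightness also depends on its probes, levels are compared between cultures for the same gene and never between genes. In such bulk samples, fewer cells of a type and less RNA per cell cannot be told apart.

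Promoters of the members are shown for 5 genes. Ldha, Pgk1, Slc2a1 and Pfkl were picked from the members that rose in both EpiSC groups, and Pfkp fell in both. Hk2, Pfkm and Aldoc also rose in both and are not shown. For Ldha the first of its 2 RefSeq starts is shown. Each line holds the 250 bases before the RefSeq transcription start (GRCm38.p6), 5′ to 3′ on the gene's strand, at chr7:46845554-46845803 (+) for Ldha, chrX:106186850-106187099 (+) for Pgk1, chr4:119108495-119108744 (+) for Slc2a1, chr10:78009808-78010057 (-) for Pfkl and chr13:6648772-6649021 (-) for Pfkp. Capitals mark matches on either strand to ACGTG or GCGTG, the cores of hypoxia response elements bound by HIF, and to CACGTG, the E-box read by Myc and carbohydrate-response factors. On the other strand the cores read CACGT and CACGC, and each CACGTG also holds 1 ACGTG on both strands.
Ldha: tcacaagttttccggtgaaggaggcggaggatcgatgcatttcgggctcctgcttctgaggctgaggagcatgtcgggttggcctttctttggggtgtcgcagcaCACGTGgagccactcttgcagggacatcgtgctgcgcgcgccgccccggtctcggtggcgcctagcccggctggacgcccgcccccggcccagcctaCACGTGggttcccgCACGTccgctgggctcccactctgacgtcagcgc
Pgk1: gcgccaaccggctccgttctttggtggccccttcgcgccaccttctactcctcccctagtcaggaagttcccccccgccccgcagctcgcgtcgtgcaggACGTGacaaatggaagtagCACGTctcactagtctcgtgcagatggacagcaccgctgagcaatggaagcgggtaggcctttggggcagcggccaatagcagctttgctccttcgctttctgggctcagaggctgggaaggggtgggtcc
Slc2a1: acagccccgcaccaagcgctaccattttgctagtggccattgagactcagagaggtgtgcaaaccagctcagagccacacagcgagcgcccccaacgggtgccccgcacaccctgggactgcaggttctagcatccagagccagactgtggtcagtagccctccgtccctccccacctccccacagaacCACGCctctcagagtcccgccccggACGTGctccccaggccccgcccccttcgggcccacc
Pfkl: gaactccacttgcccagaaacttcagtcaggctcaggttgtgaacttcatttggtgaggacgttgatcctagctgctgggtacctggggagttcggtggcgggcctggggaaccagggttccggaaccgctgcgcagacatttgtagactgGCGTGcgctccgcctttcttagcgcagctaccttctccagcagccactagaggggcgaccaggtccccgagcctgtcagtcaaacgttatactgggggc
Pfkp: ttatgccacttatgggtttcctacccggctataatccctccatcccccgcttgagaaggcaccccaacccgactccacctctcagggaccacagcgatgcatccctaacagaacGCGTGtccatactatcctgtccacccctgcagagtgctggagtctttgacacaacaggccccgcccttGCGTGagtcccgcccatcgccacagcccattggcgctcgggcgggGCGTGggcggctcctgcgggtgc

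Across RefSeq promoter windows of 300 bases, 250 before to 50 after the start, ACGTG lay in 19.6% of 32851 windows and in 8 of the 17 windows of the members (47.1%). GCGTG lay in 32.4% of all windows and in 11 of the 17 (64.7%). The E-box CACGTG lay in 7.15% of all windows and in 2 of the 17, 1 of Ldha and 1 of Pfkm. Pfkm has 4 of the 17 windows, and 2 of these overlap and share a GCGTG match. By gene, 7 of the 10 members held ACGTG in a window, 8 GCGTG and 2 CACGTG. The shares over all windows were not counted by gene. The Ldha window shown holds 2 E-boxes, more than any other window of the members. The other Ldha window holds 2 GCGTG matches but neither ACGTG nor CACGTG. A match describes letters and is not a bound site, and the Pfkp window, whose gene fell, holds 4 GCGTG matches, more than any other window of the members. All 3 motifs hold a CpG, and the GC content of the members' windows ran from 36.7% to 67.3%.

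Most members were higher in both primed cultures than in naive ESCs. In CHIR/XAV EpiSCs 7 of the 10 rose, 1 (Pfkp) fell and Hk1 and Pdk1 were not called. In FGF2/activin EpiSCs 8 rose, Pfkp fell and Hk1 was not called. Calls are limma's at a Benjamini-Hochberg adjusted p under 0.05 over all 19938 genes, of which 24.7% were called higher and 22.1% lower in the first comparison, and 27.8% higher and 33.5% lower in the second. The members' median changes were 1.12 and 1.09, against medians over all genes of -0.03 and -0.08. Because the members were chosen with earlier results of these data known, these counts and medians describe the set and test nothing. Both comparisons use the same ESC arrays. The split of all calls depended on scaling: as deposited, 52.7% and 45.3% of the calls were on the higher side, after median centring of the arrays 56.6% and 55.1%, and after centring over the named genes, a setting added later, 35.0% in both.

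Between the primed cultures 6 members differed. Pfkm and Aldoc were higher in CHIR/XAV than in FGF2/activin EpiSCs, and Hk2, Pfkp, Slc2a1 and Pdk1 were lower, against 20.5% of all genes called higher and 21.1% lower. Hk1, Pfkl, Pgk1 and Ldha were not called.

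**Figure D1:**
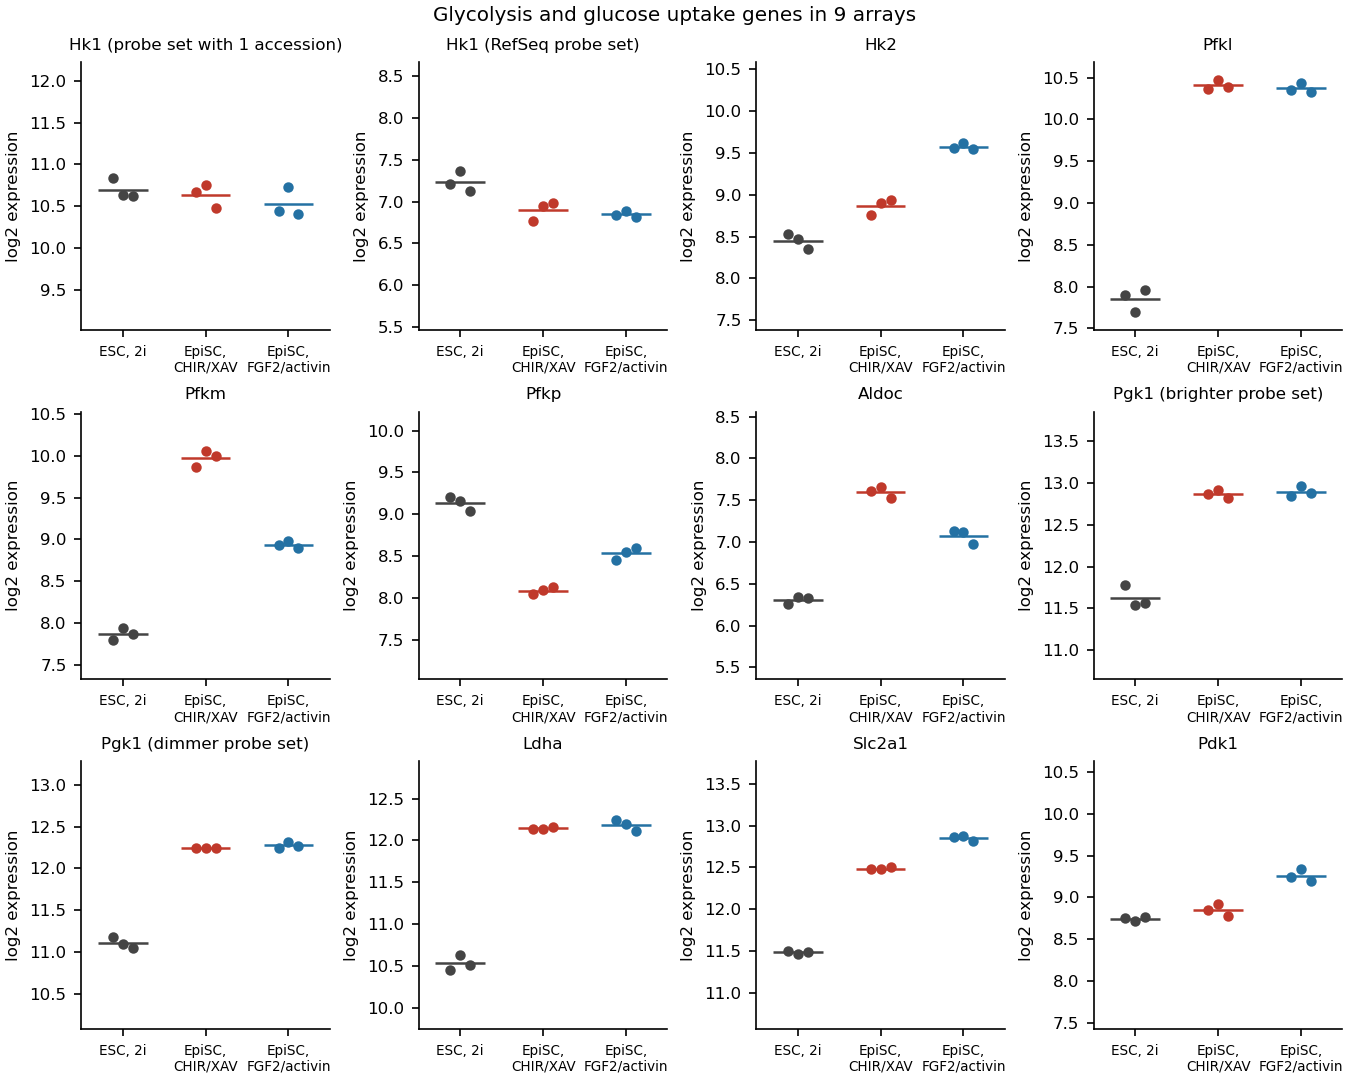
log2 expression of each member on the 9 arrays, 1 point per array, coloured by culture. Hk2, Pfkl, Pfkm, Aldoc, Pgk1, Ldha, Slc2a1 and Pdk1 lie above the ESC points in both EpiSC groups, though Pdk1 was not called in CHIR/XAV EpiSCs. Pfkp and the dimmer Hk1 probe set lie below them, and the groups of the brighter Hk1 probe set overlap.

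Slc2a1 (GLUT1) is the carrier for basal glucose uptake in most cells. It read 11.50, 11.47 and 11.49 on the ESC arrays, 12.48, 12.48 and 12.51 in CHIR/XAV EpiSCs and 12.87, 12.87 and 12.81 in FGF2/activin EpiSCs. The 3 groups did not overlap, and the FGF2/activin arrays were highest. Slc2a1 rose by 1.00 in CHIR/XAV EpiSCs (SE 0.06, limma adjusted p = 4.5e-09), a 2.00-fold difference, and by 1.36 in FGF2/activin EpiSCs (adjusted p = 1.12e-10, 2.57-fold), and the cultures differed by -0.36 (adjusted p = 0.000223).

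Slc2a3 (GLUT3), the high-affinity carrier best known from neurons and the early embryo, took another course. Its means were 11.90 in ESCs, 11.12 in CHIR/XAV EpiSCs and 12.04 in FGF2/activin EpiSCs. It fell by 0.78 in CHIR/XAV EpiSCs (limma adjusted p = 1.97e-07), and in FGF2/activin EpiSCs the difference was 0.14 (adjusted p = 0.082), with all 3 arrays above the ESC arrays. The ratio of Slc2a1 to Slc2a3 therefore shifted by 1.79 towards Slc2a1 in CHIR/XAV EpiSCs and by 1.22 in FGF2/activin EpiSCs. Of the 9 carriers of the family other than Slc2a1, 1 rose and 2 fell in CHIR/XAV EpiSCs, and 1 rose and 6 fell in FGF2/activin EpiSCs. The rise in both was that of Slc2a12, by 1.42 and 0.49. In ESCs all of the 9 but Slc2a3 were dim. Their means there ran from 4.87 (Slc2a12) to 5.68 (Slc2a6), near the array medians or below. Of all genes 22.1% fell in CHIR/XAV and 33.5% in FGF2/activin EpiSCs. The all-gene median in the latter was -0.08, but 0.09 without the dimmest 40% of genes, so these falls may be background. Slc2a5, the fructose carrier, was dim, with a mean of 4.90 in ESCs, and fell in both (-0.27 and -0.56). Slc2a8 differed by 0.02 (adjusted p = 0.804) in CHIR/XAV EpiSCs and fell by 0.37 in FGF2/activin EpiSCs.

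Hexokinases phosphorylate glucose and keep it in the cell. Hk2, the inducible isozyme, read 8.53, 8.47 and 8.35 in ESCs, 8.76, 8.90 and 8.94 in CHIR/XAV EpiSCs and 9.56, 9.62 and 9.54 in FGF2/activin EpiSCs. No array of one group reached into another. Hk2 rose by 0.42 (SE 0.07, limma adjusted p = 0.000254) in CHIR/XAV EpiSCs and by 1.12 (adjusted p = 8.15e-09, 2.18-fold) in FGF2/activin EpiSCs, and the primed cultures differed by -0.71 (adjusted p = 2.61e-06).

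Hk1, the constitutive isozyme, had 2 probe sets that did not tell the same story. The brighter one read 10.84, 10.63 and 10.62 in ESCs, 10.67, 10.76 and 10.48 in CHIR/XAV EpiSCs and 10.45, 10.73 and 10.40 in FGF2/activin EpiSCs. Its groups overlapped, with differences of -0.06 (limma adjusted p = 0.656) and -0.17 (adjusted p = 0.149) from ESCs. The latter passed the threshold without FGF2/activin replicate 2 (-0.27, adjusted p = 0.0313) and after quantile normalization (-0.26, adjusted p = 0.0319). The dimmer one read 7.21, 7.36 and 7.13 in ESCs, 6.77, 6.95 and 6.98 in CHIR/XAV EpiSCs and 6.83, 6.89 and 6.82 in FGF2/activin EpiSCs. All 6 EpiSC arrays lay below the ESC arrays there, and in a fit with this probe set standing for the gene Hk1 fell, with changes of -0.33 (limma adjusted p = 0.00283) and -0.39 (adjusted p = 0.000795).

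The annotation of these probe sets also differs. The brighter one, which the rule of the highest mean chose for the gene, lists a single transcript, and the same transcript is listed by 16 further probe sets that are annotated to Hk1 together with other genes, all 16 of them also to the ribosomal protein gene Rpl17. The dimmer one lists 8 transcripts, RefSeq entries among them. Whether Hk1 fell therefore depends on the probe set. With either probe set the ratio of Hk1 to Hk2 moved towards Hk2, by -0.48 and -1.29 with the brighter one and by -0.75 and -1.51 with the dimmer one, in CHIR/XAV and FGF2/activin EpiSCs in turn.

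Phosphofructokinase carries out the committed step of glycolysis as a tetramer of liver (Pfkl), muscle (Pfkm) and platelet (Pfkp) subunits. The 3 genes moved apart. Pfkl read 7.90, 7.69 and 7.96 in ESCs, 10.36, 10.47 and 10.39 in CHIR/XAV EpiSCs and 10.35, 10.44 and 10.33 in FGF2/activin EpiSCs. All EpiSC arrays lay far above the ESC arrays and the EpiSC groups overlapped. Pfkl rose by 2.56 (SE 0.08, limma adjusted p = 2.69e-12, 5.88-fold) and by 2.52 (adjusted p = 2.31e-12, 5.75-fold), the largest changes of any member in the 2 comparisons with ESCs. Between the primed cultures it differed by 0.03 (adjusted p = 0.755).

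Pfkm was graded across the 3 cultures. It read 7.80, 7.94 and 7.87 in ESCs, 9.87, 10.06 and 9.99 in CHIR/XAV EpiSCs and 8.94, 8.98 and 8.89 in FGF2/activin EpiSCs, without overlap. Pfkm rose by 2.11 (SE 0.07, limma adjusted p = 8.71e-12, 4.30-fold) in CHIR/XAV EpiSCs and by 1.07 (adjusted p = 1.11e-08, 2.10-fold) in FGF2/activin EpiSCs, and was 2.05-fold higher in the former than in the latter (1.04, adjusted p = 4.13e-08).

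Pfkp went the other way. It read 9.21, 9.16 and 9.04 in ESCs, 8.04, 8.09 and 8.13 in CHIR/XAV EpiSCs and 8.46, 8.55 and 8.60 in FGF2/activin EpiSCs. Again no groups overlapped, with ESCs highest and CHIR/XAV EpiSCs lowest. Pfkp fell in both, with changes of -1.05 (SE 0.07, limma adjusted p = 1.36e-08, 2.07-fold) in CHIR/XAV EpiSCs and -0.60 (adjusted p = 4.4e-06, 1.52-fold) in FGF2/activin EpiSCs, and the primed cultures differed by -0.45 (adjusted p = 0.000124).

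The within-array ratios put numbers on this shift of isozymes. The ratio of Pfkl to Pfkp grew by 3.61 log2 units (12.2-fold) in CHIR/XAV EpiSCs and by 3.12 (8.71-fold) in FGF2/activin EpiSCs. That of Pfkm to Pfkp grew by 3.16 (8.91-fold) and 1.67 (3.18-fold). Pfkl gained on Pfkm in both, by 0.45 and 1.45, so the gain was smaller by 1.00 in CHIR/XAV EpiSCs. In an exact two-sided permutation test, 3 arrays against 3 cannot go below p = 0.1, and 28 of the 30 comparisons made on 10 pairs of genes stood at that smallest value, with a smallest Benjamini-Hochberg value of 0.107. No ratio therefore passes 0.05. The ratios did not overlap between groups in 8 of 10 pairs for CHIR/XAV EpiSCs against ESCs, and in all 10 for FGF2/activin EpiSCs against ESCs and for the primed cultures against each other. Such separation is common in these data: among every pair of all genes the ratio did not overlap in 60.7%, 67.4% and 55.9% of pairs in these comparisons, and among genes above the dimmest 40% in 73.7%, 78.7% and 68.0%. A ratio within an array shows unequal change of the genes and not which isozyme is the more abundant.

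**Figure D2:**
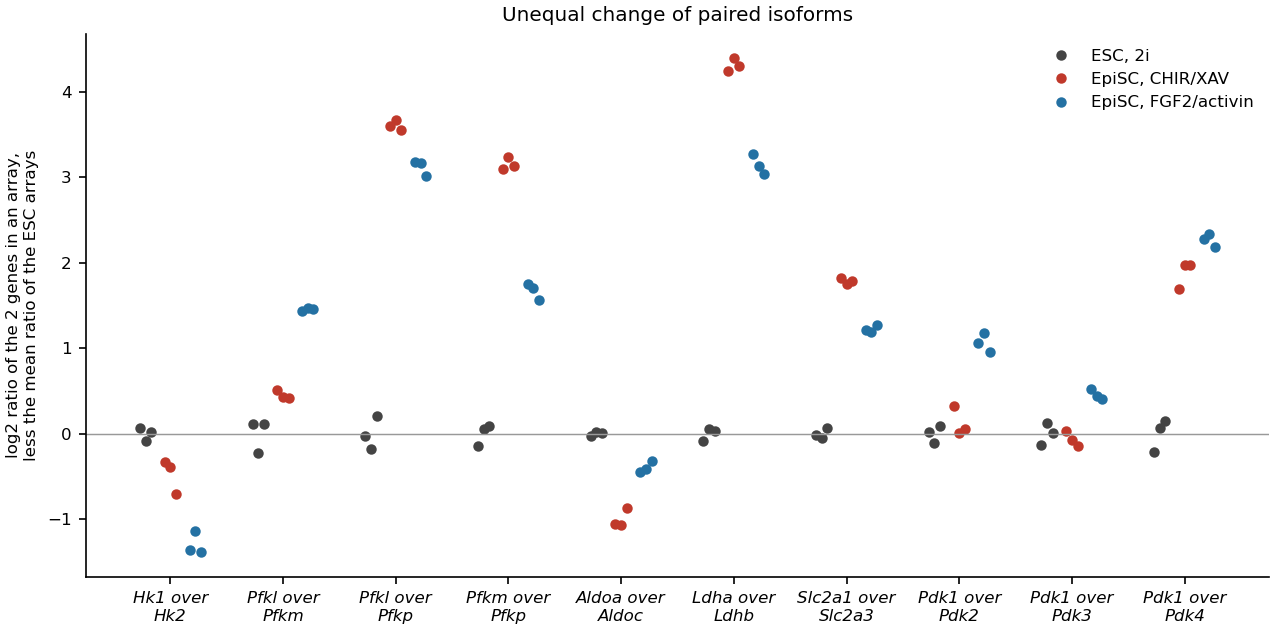
log2 ratio of the named genes in each array less the mean ratio of the ESC arrays, 1 point per array, for 10 pairs. Ldha over Ldhb and Pfkl over Pfkp show the largest shifts, 4.31 and 3.61 in CHIR/XAV EpiSCs, and Pdk1 over Pdk2 and over Pdk3 overlap with ESCs in CHIR/XAV EpiSCs.

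PFK-2 enzymes and Tigar set the level of fructose 2,6-bisphosphate, the strongest activator of phosphofructokinase. Of the 4 measured 1 rose and 1 fell in CHIR/XAV EpiSCs, where 24.7% of all genes rose and 22.1% fell. In FGF2/activin EpiSCs 2 rose and 1 fell, where 27.8% of all genes rose and 33.5% fell. Pfkfb3, an isozyme that strongly favours making this activator, had means of 6.11 in ESCs, 6.54 in CHIR/XAV EpiSCs and 8.77 in FGF2/activin EpiSCs. It rose by 0.43 (limma adjusted p = 0.000476) and by 2.66 (adjusted p = 1.79e-12, 6.34-fold), and the primed cultures differed by -2.24 (adjusted p = 5.42e-11). Pfkfb2 rose by 0.69 in FGF2/activin EpiSCs and differed by -0.07 (adjusted p = 0.591) in CHIR/XAV EpiSCs. Tigar, a phosphatase that removes the activator, fell in both (-0.74 and -0.90), and Pfkfb4 differed by -0.10 (adjusted p = 0.269) and -0.02 (adjusted p = 0.81).

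Pfkm lies on chromosome 15, in a region where other genes were also higher in CHIR/XAV EpiSCs. Among the 10 genes on either side of it that lay above the dimmest 40%, 15 of 20 were called higher and 1 lower in CHIR/XAV EpiSCs against ESCs, with a median change of 0.81. In FGF2/activin EpiSCs 9 were higher and 7 lower, with a median of -0.0025. In a fit of the 11963 genes above this cut alone, 4509 were higher and 3409 lower in CHIR/XAV EpiSCs. In FGF2/activin EpiSCs 5176 of them were higher and 3511 lower. Pfkm rose more than each of the 20 in both comparisons, by 1.29 and 1.07 over the neighbours' median. Farther out, among the 20 genes on either side, Pphln1, Prickle1 and Prph rose more than Pfkm in both, Prickle1 by 3.45 and 2.25. Between the primed cultures 15 of the 20 neighbours were again higher in CHIR/XAV EpiSCs and 1 lower, with a median of 0.77. Pfkm at 1.04 was above 13 of them, 0.27 over the median. Of the 11963 genes above the cut, 2888 were higher and 4117 lower there. The neighbours' changes in CHIR/XAV EpiSCs ran from -4.78, for the amino acid carrier gene Slc38a4, to 1.68. These 4 neighbours were named after their values were seen. The part of the region in the Pfkm values was not tested.

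Over the whole chromosome the shift was smaller. The median of 473 chromosome 15 genes was 0.37 in CHIR/XAV and 0.10 in FGF2/activin EpiSCs against ESCs, and that of 11029 genes on the other autosomes was 0.03 and 0.09. Pfkl, on chromosome 10, stood above all 20 of its own neighbours above this cut in both comparisons, and their medians were 0.32 and 0.28.

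**Figure D3:**
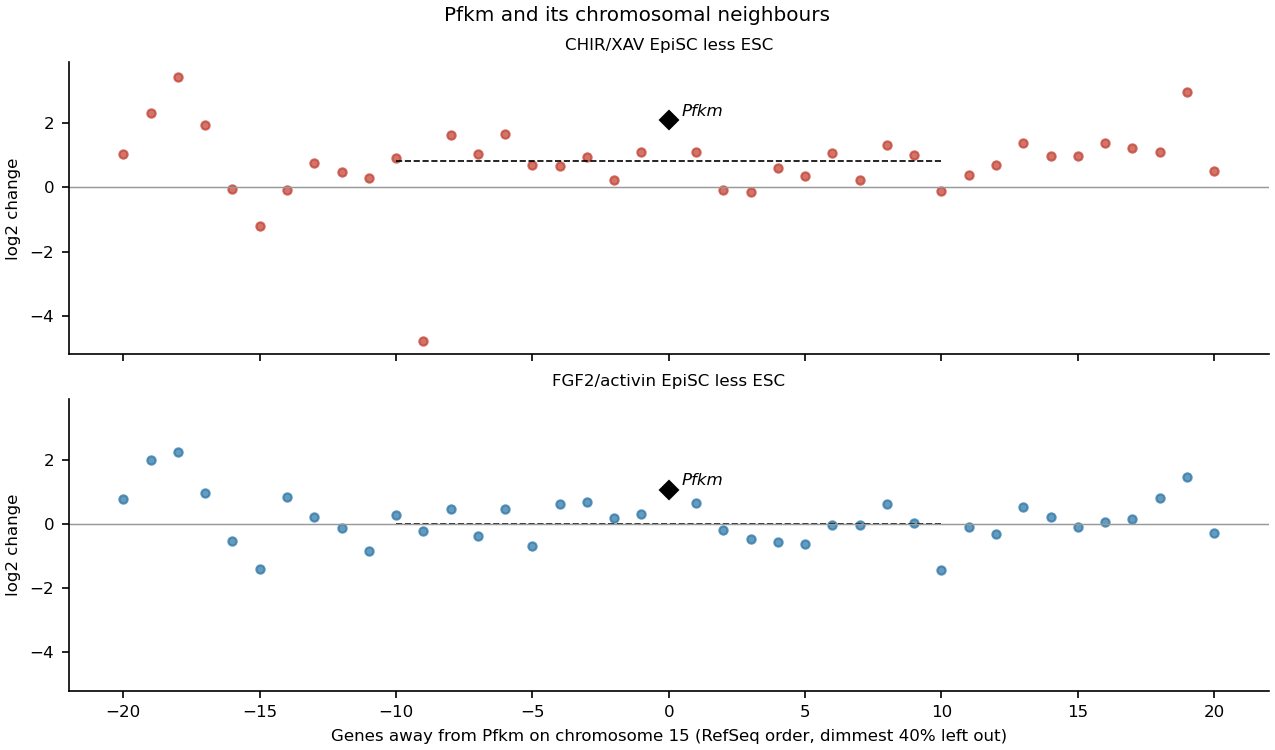
log2 change against ESCs of Pfkm (diamond) and of the 20 genes on either side of it on chromosome 15 in RefSeq order, with the dimmest 40% left out, for CHIR/XAV (top) and FGF2/activin EpiSCs (bottom). The dashed line is the median of the 10 nearest genes on either side, 0.81 in the upper panel and -0.0025 in the lower.

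Aldolases split the phosphorylated sugar. Aldoc, the brain form, read 6.26, 6.34 and 6.33 in ESCs, 7.61, 7.65 and 7.52 in CHIR/XAV EpiSCs and 7.13, 7.12 and 6.97 in FGF2/activin EpiSCs. The groups did not overlap and CHIR/XAV EpiSCs were highest. Aldoc rose by 1.28 (SE 0.07, limma adjusted p = 1.48e-09, 2.43-fold) and by 0.76 (adjusted p = 3.5e-07, 1.70-fold), and was higher by 0.52 in CHIR/XAV than in FGF2/activin EpiSCs (adjusted p = 3.18e-05). Aldoa, the form of muscle and most growing cells, rose less, by 0.29 (adjusted p = 0.00189) and 0.37 (adjusted p = 0.000226), and the ratio of Aldoa to Aldoc changed by -0.99 and -0.39.

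Pgk1 makes the first ATP of the pathway and is X-linked. It had 3 probe sets, of which 2 hold identical values on every array. These read 11.78, 11.54 and 11.57 in ESCs, 12.87, 12.91 and 12.81 in CHIR/XAV EpiSCs and 12.84, 12.96 and 12.88 in FGF2/activin EpiSCs. The EpiSC groups overlapped and both lay above ESCs. Pgk1 rose by 1.24 (SE 0.08, limma adjusted p = 5.7e-09, 2.36-fold) and by 1.27 (adjusted p = 3.33e-09, 2.41-fold), and by 1.14 and 1.17 on the dimmer probe set. The 20 genes nearest to Pgk1 had median changes of 0.69 and 0.63, and Pgk1 was above 14 and 13 of them. Over 424 X-linked genes above the same cut the medians were 0.19 and 0.24, against 0.04 and 0.09 for such genes on the autosomes. The part of this neighbourhood in the Pgk1 values was not tested.

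Other glycolytic enzymes went both ways. Of 15 other glycolytic enzymes measured among 20 listed, 8 rose and 2 fell in CHIR/XAV EpiSCs, with a median of 0.29. In FGF2/activin EpiSCs 7 rose and 5 fell, with a median of 0.08. Over all genes 24.7% rose and 22.1% fell in the first comparison, and 27.8% and 33.5% in the second. Ldhc, which fell in both, and Hk3, which fell in FGF2/activin EpiSCs, were dim, with ESC means of 4.70 and 4.68. Eno3, the muscle enolase, went from 7.13 in ESCs to 8.85 and 8.95, rises of 1.72 (limma adjusted p = 3.65e-10) and 1.82 (adjusted p = 1.43e-10). Eno2, the neuronal enolase, rose by 0.77 and 1.03. Outside the naming rule and added to fill the steps, Tpi1 rose by 0.74 and 0.95, Pgam1 by 0.34 and 0.53 and Pkm, the pyruvate kinase of growing cells, by 0.65 and 0.69.

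Pklr, the pyruvate kinase of liver and red cells, set the primed cultures apart. It read 5.73, 5.62 and 5.88 in ESCs, 8.15, 8.34 and 8.22 in CHIR/XAV EpiSCs and 5.20, 5.10 and 5.36 in FGF2/activin EpiSCs. The CHIR/XAV arrays were high, and the FGF2/activin arrays were the lowest. Pklr rose by 2.49 (limma adjusted p = 1.53e-11) in CHIR/XAV EpiSCs, fell by 0.52 (adjusted p = 0.000164) in FGF2/activin EpiSCs and was 8.08-fold higher in the former than in the latter (3.01, adjusted p = 7.1e-12).

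**Figure D4:**
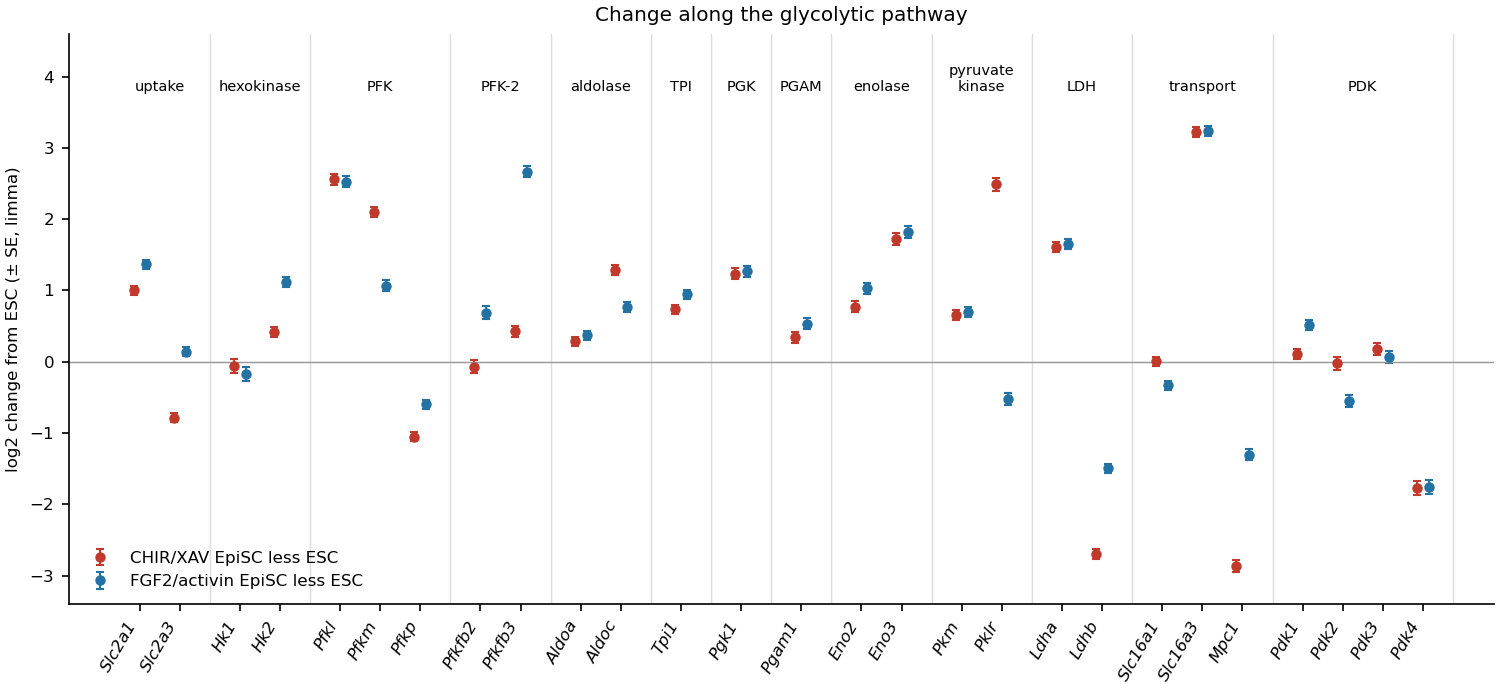
log2 change against ESCs of glycolytic genes in the order of the pathway, for CHIR/XAV and FGF2/activin EpiSCs, with Hk1 read by its brighter probe set. Pfkl, Pfkm, Pgk1, Eno3, Ldha and Slc16a3 lie above 1 in both EpiSC groups, as does Slc2a1, barely so in CHIR/XAV EpiSCs. Pfkp, Ldhb, Mpc1 and Pdk4 were called lower in both.

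Lactate dehydrogenase interconverts pyruvate and lactate. The A subunit, from Ldha, favours lactate formation and the B subunit, from Ldhb, the reverse. Ldha read 10.45, 10.63 and 10.52 in ESCs, 12.14, 12.14 and 12.16 in CHIR/XAV EpiSCs and 12.24, 12.20 and 12.11 in FGF2/activin EpiSCs. All EpiSC arrays were above the ESC arrays, and the EpiSC groups overlapped. Ldha rose by 1.61 (SE 0.07, limma adjusted p = 1.14e-10, 3.06-fold) and by 1.65 (adjusted p = 6.42e-11, 3.15-fold), and the primed cultures differed by -0.04 (adjusted p = 0.669).

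Ldhb fell in both. It read 10.42, 10.47 and 10.37 in ESCs, 7.79, 7.64 and 7.75 in CHIR/XAV EpiSCs and 8.86, 8.96 and 8.95 in FGF2/activin EpiSCs. The 3 groups were fully apart. Its changes were -2.70 (limma adjusted p = 4.17e-13, 6.48-fold) and -1.50 (adjusted p = 1.47e-10, 2.82-fold), and the primed cultures differed by -1.20 (adjusted p = 5.43e-09). The ratio of Ldha to Ldhb grew by 4.31 (19.8-fold) in CHIR/XAV EpiSCs and by 3.15 (8.88-fold) in FGF2/activin EpiSCs, the largest shift of the 10 pairs in CHIR/XAV EpiSCs and, at 3.15 against 3.12 for Pfkl over Pfkp, in FGF2/activin EpiSCs.

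Among carriers of lactate and pyruvate, 1 rose and 1 fell strongly in both EpiSC groups. Slc16a3 (MCT4), the exporter of lactate from glycolytic cells, had means of 6.60 in ESCs, 9.82 in CHIR/XAV EpiSCs and 9.84 in FGF2/activin EpiSCs. It rose by 3.22 (limma adjusted p = 1.06e-13, 9.30-fold) and by 3.24 (adjusted p = 7.37e-14, 9.43-fold). Mpc1, a subunit of the mitochondrial pyruvate carrier, went from 10.51 in ESCs to 7.65 and 9.21, changes of -2.87 (limma adjusted p = 1.07e-12) and -1.30 (adjusted p = 3.96e-09). Its partner Mpc2 was not analysed here. Bsg (basigin), the chaperone of MCT carriers, rose by 0.38 and 0.67, and Slc16a7 rose by 0.48 in FGF2/activin EpiSCs and differed by -0.0084 (adjusted p = 0.933) in CHIR/XAV EpiSCs. Slc16a1 (MCT1), outside the naming rule, differed by 0.0058 (adjusted p = 0.95) in CHIR/XAV EpiSCs and fell (-0.33, adjusted p = 0.000619) in FGF2/activin EpiSCs. Of 6 measured genes of this list, 2 rose and 1 fell in CHIR/XAV EpiSCs, where 24.7% of all genes rose and 22.1% fell. In FGF2/activin EpiSCs 3 rose and 2 fell, where 27.8% of all genes rose and 33.5% fell.

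Pyruvate dehydrogenase kinases switch off the entry of pyruvate into the citric acid cycle. Pdk1 read 8.75, 8.72 and 8.77 in ESCs, 8.85, 8.92 and 8.78 in CHIR/XAV EpiSCs and 9.24, 9.34 and 9.20 in FGF2/activin EpiSCs. The CHIR/XAV arrays lay just above the ESC arrays and the FGF2/activin arrays clearly so. The difference in CHIR/XAV EpiSCs was 0.11 (SE 0.07, limma adjusted p = 0.216), whereas Pdk1 rose by 0.51 (adjusted p = 1.46e-05, 1.43-fold) in FGF2/activin EpiSCs, and the primed cultures differed by -0.41 (adjusted p = 0.000216).

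Of the other kinases, Pdk4 fell in both EpiSC groups, Pdk2 in FGF2/activin EpiSCs, and Pdk3 was not called. Pdk4, the kinase known from fasting and fat oxidation, had means of 6.63 in ESCs, 4.86 in CHIR/XAV and 4.87 in FGF2/activin EpiSCs, changes of -1.77 (limma adjusted p = 2.5e-09) and -1.75 (adjusted p = 2.16e-09). Pdk2 differed by -0.02 (adjusted p = 0.86) in CHIR/XAV EpiSCs and fell by 0.55 (adjusted p = 0.000109) in FGF2/activin EpiSCs. The X-linked Pdk3 differed by 0.17 (adjusted p = 0.113) and 0.06 (adjusted p = 0.55). The ratio of Pdk1 to Pdk4 grew by 1.88 and 2.27, and that of Pdk1 to Pdk2 by 1.07 in FGF2/activin EpiSCs. In CHIR/XAV EpiSCs the ratios of Pdk1 to Pdk2 and to Pdk3 overlapped with ESCs (exact two-sided permutation p = 0.5 and p = 0.6).

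Phosphatases that undo this modification went apart. Pdp1 rose by 0.62 (limma adjusted p = 2.85e-05) in CHIR/XAV EpiSCs and differed by 0.19 (adjusted p = 0.0712) in FGF2/activin EpiSCs, and Pdp2 fell in both (-0.59 and -0.67). Of the 12 other genes of the pyruvate dehydrogenase system, 4 rose and 3 fell in CHIR/XAV EpiSCs, with a median of 0.05. In FGF2/activin EpiSCs 4 rose and 4 fell, with a median of -0.0001. The shares of all genes that rose and fell were 24.7% and 22.1% in the former, and 27.8% and 33.5% in the latter.

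Transcription factors that act on glycolytic genes moved in different directions. Of 12 regulators 4 rose and 4 fell in each EpiSC group. The shares of all genes were 24.7% and 22.1% in CHIR/XAV and 27.8% and 33.5% in FGF2/activin EpiSCs. Myc, which activates most glycolytic genes including Ldha and like Pfkm lies on chromosome 15, went from 6.92 in ESCs to 9.66 and 9.58, rises of 2.74 (limma adjusted p = 2.24e-13) and 2.66 (adjusted p = 2.25e-13). The related Mycn, outside the naming rule, fell in both (-0.87 and -0.40), and Mycl was not called in either. Epas1 (HIF-2 alpha) fell in both (-1.68 and -1.23). Egln1, a prolyl hydroxylase that marks HIF alpha subunits for destruction, rose by 1.35 in FGF2/activin EpiSCs and differed by 0.13 (adjusted p = 0.186) in CHIR/XAV EpiSCs. Mlxipl (ChREBP), the glucose-sensing factor, fell in both (-0.25 and -1.29). Hif1a, named outside the rule because it is the best known of them, rose by 0.29 (adjusted p = 0.00505) and 0.57 (adjusted p = 1.34e-05).

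Known targets of HIF outside glycolysis were mostly higher in the primed cultures. Of 14 listed, 10 rose and 2 fell in CHIR/XAV EpiSCs, where 24.7% of all genes rose and 22.1% fell. In FGF2/activin EpiSCs 11 rose and 1 fell, where 27.8% of all genes rose and 33.5% fell. Their medians were 0.38 and 1.00 against -0.03 and -0.08 over all genes. Between the primed cultures 1 was higher and 11 were lower in CHIR/XAV EpiSCs, with a median of -0.51, against 20.5% and 21.1% of all genes. Egln3, a prolyl hydroxylase induced by HIF, rose by 2.84 (limma adjusted p = 4.01e-11) and 2.34 (adjusted p = 2.47e-10). The mitophagy gene Bnip3 rose by 1.77 and 2.02 and the mTOR inhibitor gene Ddit4 by 0.96 and 1.81. Adm, which encodes the peptide adrenomedullin, rose by 1.75 in FGF2/activin EpiSCs and differed by 0.08 (adjusted p = 0.529) in CHIR/XAV EpiSCs. The genes that fell lie outside the naming rule. Kdm3a fell in both (-1.67 and -1.03). Vegfa fell in CHIR/XAV EpiSCs (-0.78) and differed by -0.0043 (limma adjusted p = 0.957) in FGF2/activin EpiSCs.

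Over the 85 measured of 93 genes listed around the pathway, members left out, 30 rose and 20 fell in CHIR/XAV EpiSCs, 34 rose and 33 fell in FGF2/activin EpiSCs, and 22 were higher and 30 lower in the former than in the latter. Their medians were 0.04, -0.08 and 0.0054, close to those of all genes at -0.03, -0.08 and 0.05. Of all genes 24.7% rose and 22.1% fell in the first comparison, and 27.8% and 33.5% in the second. In the third 20.5% were higher and 21.1% lower.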

How the data were processed

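Total RNA of 9 samples was hybridised to single-colour Affymetrix arrays. The deposited values are log2 expression per probe set, which the authors made with RMA in Partek (named in the submitters' processing notes). Tool versions and the genome build: not given in the sources used here. RMA normalizes between arrays, so a global shift in RNA would be hidden, and detection calls were not used here. Of 35399 probe sets, 21789 carried 1 symbol, 1621 several and 11989 none, and only the first were used. For 999 genes with several, the probe set with the highest mean stood for the gene. Of 19938 genes, 19856 matched RefSeq by identifier, which gave chromosomes and gene order.

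All 9 arrays entered 1 limma fit (limma 3.58.1, R 4.3.3, no covariates, no filter), with Benjamini-Hochberg adjustment over 19938 genes and a threshold of 0.05. It was tested on simulated data. Isozyme ratios were compared by exact permutation tests. Promoters came from RefSeq (GRCm38.p6, 17 for the 10 members).

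Named genes are the members, their isozyme partners, up to 4 genes per pathway list with the largest change against ESCs, and the 3 nearest in pattern to each phosphofructokinase gene. Others are said to be outside this rule. Members and lists were chosen with earlier results of these data known. Alternatives were another summary of probe sets, each probe set as a row, each group pair fitted alone, array weights, eBayes with trend and robust settings, a filter on dim genes, quantile normalization, median centring, leaving out single arrays, blocking on the replicate number, and other numbers of neighbours. The RefSeq-listed Hk1 probe set and median centring over named genes were added after seeing the data. Some listed genes, Gpi1, Gapdh and Eno1 among them, were not analysed here.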

Additional observations from a re-analysis of the deposited data

Results flagged for a closer look

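The change against ESCs differed between the EpiSC cultures for 6 members, by limma's test of that difference (adjusted p under 0.05). For a shared control this is the same as comparing the primed cultures directly. Such differences are common, as 20.5% of all genes were called higher and 21.1% lower in CHIR/XAV than in FGF2/activin EpiSCs. The difference in log2 change was 1.04 for Pfkm and 0.52 for Aldoc, both higher in CHIR/XAV EpiSCs. It was -0.71 for Hk2, -0.45 for Pfkp, -0.36 for Slc2a1 and -0.41 for Pdk1, all lower in CHIR/XAV EpiSCs. Pfkp is the member that fell in both cultures, so there the negative value is a larger fall. Dixon's test for an outlying value was not applied to groups of 3 arrays.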

How the results depend on the processing

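The counts of members called higher were the same under every alternative run, in all 3 comparisons. The count called lower rose from 1 to 2 in CHIR/XAV EpiSCs with the mean of all probe sets and with the RefSeq-listed Hk1 probe set. In FGF2/activin EpiSCs it rose from 1 to 2 under the same settings and under quantile normalization and median centring over named genes, and ranged from 1 to 2 when each array was left out, with 2 without FGF2/activin replicate 2. The added gene was Hk1 in each case, whose difference in FGF2/activin EpiSCs was -0.27 (limma adjusted p = 0.0313) without that array. The excess of Pfkm over its neighbours' median, 1.29 in CHIR/XAV EpiSCs, was 1.48 with 5 neighbours on either side, 1.17 with 20 and 1.91 with dim neighbours kept. In FGF2/activin EpiSCs 1.07 became 0.96 with 20, and between the primed cultures 0.27 became 0.64 with 5 and 0.84 with dim neighbours kept. The cause was not tested. Signs turned only for differences that were not called. Hk1 in CHIR/XAV EpiSCs ranged from -0.12 to 0.017 when each array was left out, at 0.010 without ESC replicate 1 and 0.017 without CHIR/XAV replicate 3. Pgk1 between the primed cultures ranged from -0.057 to 0.0038, and Pfkl there was -0.0024 after median centring. Median centring over named genes put 35.0% of all calls on the higher side in both comparisons with ESCs and moved the all-gene median to -0.13 in CHIR/XAV and -0.16 in FGF2/activin EpiSCs. Same-numbered arrays deviated together with correlations of -0.071 to 0.239, so the numbers were not taken to pair samples. With the replicate number as a block the members' counts stayed at 7 higher and 1 lower, 8 and 1, and 2 and 4. Aldoc, Pklr and Pdk4 lack a detection call, as all genes here do, and folds against a group at background understate the change. Pklr in FGF2/activin EpiSCs, with a mean of 5.22, and Pdk4 in both EpiSC groups lay below the array medians. Aldoc, with a mean of 6.31 in ESCs, lay above them.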

Other observations

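Gluconeogenesis runs against glycolysis and the pentose phosphate pathway branches from it. Of 7 gluconeogenesis genes none rose and 2 fell in CHIR/XAV EpiSCs (limma, adjusted p under 0.05), where 24.7% of all genes rose and 22.1% fell. In FGF2/activin EpiSCs 6 fell, where 33.5% of all genes fell. Of all listed pathway genes without the members, 33 fell there, or 24 without the dimmest 40% of genes, 26 after median centring and 41 after centring over the named genes, and several of these 6 are dim. Pck2, the mitochondrial PEP carboxykinase gene, fell by 1.30 in FGF2/activin EpiSCs and differed by -0.18 (adjusted p = 0.0607) in CHIR/XAV EpiSCs. Pcx, the pyruvate carboxylase gene, fell in both (-0.69 and -0.33). G6pc, which was dim, and G6pc3 encode glucose 6-phosphatases. They differed by -0.05 (limma adjusted p = 0.61) and 0.06 (adjusted p = 0.563) in CHIR/XAV EpiSCs and fell (-0.41 and -0.34) in FGF2/activin EpiSCs.

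In the pentose phosphate pathway, which makes NADPH and ribose, none of 6 measured genes rose and 3 fell in CHIR/XAV EpiSCs. There 24.7% of all genes rose and 22.1% fell. In FGF2/activin EpiSCs 2 rose and 4 fell, where 27.8% of all genes rose and 33.5% fell. Rpe, the ribulose phosphate epimerase gene, fell in both (-1.87 and -0.49), as did Pgd, which encodes the second NADPH-forming enzyme (-0.43 and -0.75). Rpia fell by 0.66 and Pgls rose by 0.45 in FGF2/activin EpiSCs, and in CHIR/XAV EpiSCs they differed by -0.02 (limma adjusted p = 0.882) and 0.02 (adjusted p = 0.85).

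Among 11962 genes above the dimmest 40%, the patterns over the 9 arrays nearest to Pfkl were those of Ddr1, Etv4 and Unc5b, with root mean square differences of gene-centred log2 values of 0.081, 0.092 and 0.104. Nearest to Pfkm were Trank1 (0.085), Parp14 (0.099) and Fam131b (0.101), none of them on chromosome 15. Nearest to Pfkp were Fam53b (0.049), Tubb2b (0.050) and Prep (0.067).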
